A study of Mus musculus with 15 samples.

Results

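Expression of 40 genes for cell-surface adhesion molecules was examined in mouse fibroblasts that carried added Runx genes. The genes were 8 cadherins, 7 protocadherins and Fat cadherins, 12 immunoglobulin adhesion molecules, 7 members of the JAM, Esam and nectin families and 6 other surface molecules, chosen by symbol, with Cdh1 and Cdh2 left out. All 40 were measured among 18193 genes with a probe set of a single symbol, through 107 probe sets, and each gene was represented by its brightest probe set (the highest mean over all arrays). Levels are log2 values of Affymetrix arrays, so a difference of 1 is a 2-fold change, and levels of different probe sets cannot be set against each other.

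The study measured NIH3T3 cells, an immortal line of mouse embryo fibroblasts, on 15 arrays in 8 groups. All groups had been transduced with the retroviral vector pBabe-puro. The stable lines carried a constitutive mouse Runx1, Runx2 or Runx3 construct (2 arrays each) or a constitutive human RUNX1 construct (1 array). RUNX1-ER cells carried an inducible human construct and were measured induced with 4-OHT, a tamoxifen derivative, and uninduced (2 arrays each), and vector cells were measured with 4-OHT and without it (2 arrays each). Cultures were grown for 7 days to confluence and given 0.2% ethanol, with or without 4-OHT, for 24 h; the labels give the 4-OHT as 0.1 mM and do not say which treatment the stable lines had. They call the replicates biological, and they do not say whether a line was a clone or a pool of transduced cells.

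RUNX proteins bind DNA through a shared Runt domain and raise or lower the expression of their targets. Cadherins join neighbouring cells through calcium-dependent contacts and are tied to actin by catenins. Immunoglobulin adhesion molecules and nectins join cells without calcium, and tetraspanins and CD44 organise or bind partners at the membrane. Fibroblasts rely more on N-cadherin, CD44 and matrix receptors than on the adhesion molecules of epithelium.

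Of the 40 genes, 24 stayed under 5 log2 units on every array, 12 were at 5 or above on every array, and Pcdh18, Nectin1, Nectin2 and Epcam lay on both sides of 5. The value 5 is a working line between dim and bright probe sets. For scale, 38 olfactory receptor genes, which fibroblasts are not known to use, had a 95th percentile of 3.96. The dim genes included all 8 cadherins (Cdh3, Cdh4, Cdh5, Cdh6, Cdh10, Cdh11, Cdh13 and Cdh15), whose array values ran between 2.70 and 4.75, so a change in them may lie under what these probe sets can show. Pcdh7, Pcdh9, Pcdh17, Fat4, Ncam2, L1cam, Nrcam, Mcam, Bcam, Icam1, Cadm1, Cadm3, F11r, Jam2, Jam3 and Esam were dim as well. None of the 24 dim genes passed the test in any of the 12 comparisons, and among them and Nectin1 and Epcam, the 26 genes that passed nowhere, the log2 differences lay between -0.33 and 0.56.

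The defining markers matched the label. Of 11 fibroblast markers measured, 10 were at 5 or above on every array, whereas 10 of 12 epithelial, 10 of 12 endothelial, 7 of 9 haematopoietic, 7 of 8 muscle and 6 of 7 neural markers were under 5 on every array. Array medians lay between 3.69 and 3.75. Runx1 averaged 9.21 in the Runx1 line and 4.65 in vector cells. The Runx3 probe set read 4.21 in the Runx3 line and 4.45 in vector cells, and it does not check that label, since the sources used here do not say whether the construct holds the letters it reads. The Runx2 label was not checked. Mouse Runx1 averaged 4.69 in the human RUNX1 line and 4.78 and 4.67 in uninduced and induced RUNX1-ER cells, so it does not check those labels. Esr1, the estrogen receptor gene, averaged 6.51 and 5.83 in uninduced and induced RUNX1-ER cells, against 4.06 in vector cells. Whether its probe set reads the fusion was not tested. The measurements are of bulk RNA, so fewer cells with a transcript and less of it per cell cannot be told apart.

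Promoter sequence was at hand for 26 of the 40 genes. Windows from 250 bases before to 50 bases after the annotated start were taken from RefSeq (build GRCm38.p6). They are shown for Alcam, Nectin2 and Pcdh18, which fell by more than 1 log2 unit in the Runx3 line, and for Cdh10, a dim cadherin that never passed the test; TGTGGT, the core of the site that RUNX proteins bind, is in capitals where it occurs on either strand (as ACCACA on the other strand).
Alcam, chr16:52453032-52453331, minus strand: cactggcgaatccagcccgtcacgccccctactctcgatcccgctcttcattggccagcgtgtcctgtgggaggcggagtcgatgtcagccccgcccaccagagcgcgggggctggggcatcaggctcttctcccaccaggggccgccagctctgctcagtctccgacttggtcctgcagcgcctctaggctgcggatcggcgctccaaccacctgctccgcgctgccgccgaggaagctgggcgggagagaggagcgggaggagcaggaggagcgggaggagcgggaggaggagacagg
Nectin2, chr7:19749524-19749823, minus strand: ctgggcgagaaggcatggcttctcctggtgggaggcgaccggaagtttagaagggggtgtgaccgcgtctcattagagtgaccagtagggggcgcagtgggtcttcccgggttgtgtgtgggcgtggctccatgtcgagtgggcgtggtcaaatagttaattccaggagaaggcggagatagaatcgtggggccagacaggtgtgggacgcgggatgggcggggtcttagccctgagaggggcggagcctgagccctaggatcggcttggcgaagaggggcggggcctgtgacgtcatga
Pcdh18, chr3:49757267-49757566, minus strand: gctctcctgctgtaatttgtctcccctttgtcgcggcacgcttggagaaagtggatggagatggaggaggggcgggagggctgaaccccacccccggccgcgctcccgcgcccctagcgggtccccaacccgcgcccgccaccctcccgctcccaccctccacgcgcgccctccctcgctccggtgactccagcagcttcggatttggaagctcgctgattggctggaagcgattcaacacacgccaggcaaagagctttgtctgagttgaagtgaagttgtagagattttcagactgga
Cdh10, chr15:18820079-18820378, plus strand: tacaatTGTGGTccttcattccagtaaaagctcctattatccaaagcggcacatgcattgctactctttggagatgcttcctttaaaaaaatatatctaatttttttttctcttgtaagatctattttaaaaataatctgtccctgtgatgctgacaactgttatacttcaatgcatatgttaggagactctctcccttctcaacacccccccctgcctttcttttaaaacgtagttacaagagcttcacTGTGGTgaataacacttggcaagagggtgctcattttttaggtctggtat
Among 29 windows of the 26 genes, 3 held the motif, those of Cadm3, Cdh10 and Cdh15, against 16.8% of 32851 windows of the same length across the genome. These 3 genes were dim on every array. The variant TGCGGT was in none of the 29 windows and in 6.45% of all windows. A match is a description of these letters only, and sites outside the window were not searched.

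Most adhesion genes that changed fell, and Ncam1 rose. Against vector cells, 12 of the 40 genes fell and 1 rose in the Runx3 line (30.0% and 2.50%), where 5.40% of all genes fell and 3.97% rose. In the Runx2 line 5 fell and 1 rose, where 1.65% of all genes fell and 0.923% rose. In the Runx1 line 2 fell and 1 rose, where 0.726% of all genes fell and 0.973% rose. A gene passed where limma's test, fitted to all 15 arrays and adjusted over 18193 genes by Benjamini-Hochberg, gave an adjusted p under 0.05. All 13 genes that passed in the Runx3 line were among the 15 with a mean of at least 5, and among all 8048 genes that bright 10.9% fell and 7.54% rose in that line. The median log2 difference of the 40 genes was -0.08, -0.09 and -0.04 in the Runx1, Runx2 and Runx3 lines, against -0.01, -0.01 and 0.00 over all genes. The 3 comparisons share the vector arrays. The 40 genes were chosen with earlier results of these data known, so these shares describe them and are not an independent test.

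**Figure D1:**
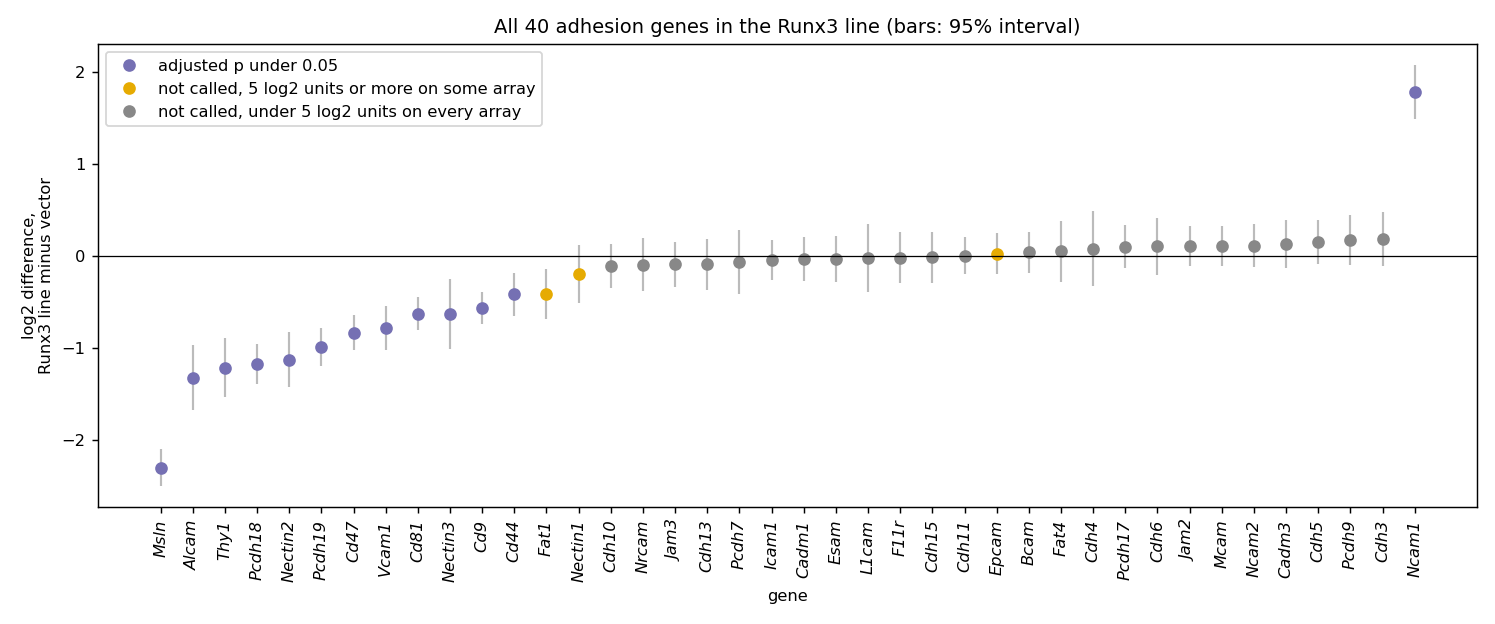
Log2 difference of each of the 40 genes in the Runx3 line minus vector cells, with its 95% interval, ordered by size along the horizontal axis. The 13 genes that passed (12 lower, 1 higher) stand at the ends of the order, and the genes under 5 log2 units on every array lie near 0.

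Msln encodes mesothelin, a surface protein of mesothelium that binds the mucin MUC16 and is held by a lipid anchor. Its level was 7.27 and 7.35 on the Runx1 arrays, 7.06 and 7.07 on the Runx2 arrays and 5.83 and 5.92 on the Runx3 arrays, against 8.14 and 8.20 on the vector arrays. The lines did not overlap with vector cells or with each other. Msln fell by 2.30 ± 0.09 (SE) in the Runx3 line, which is 4.92-fold lower than in vector cells (limma, adjusted p = 1.29e-08). The decrease in the Runx2 line was smaller (log2 difference -1.11; limma, adjusted p = 2.06e-05), and so was that in the Runx1 line (-0.86, adjusted p = 0.000256). Mesothelin has a single probe set here.

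Ncam1 encodes the neural cell adhesion molecule, which binds its like on neighbouring cells and also occurs outside the nervous system. Its level was 8.99 and 8.64 in the Runx1 line, 9.06 and 9.16 in the Runx2 line and 9.66 and 9.64 in the Runx3 line, against 7.81 and 7.92 in vector cells. Every array of the 3 lines lay above both vector arrays. The rise was 1.78 ± 0.14 (SE) in the Runx3 line, a 3.45-fold difference (limma, adjusted p = 2.46e-06), with log2 differences of 1.25 in the Runx2 line (adjusted p = 0.00021) and 0.95 in the Runx1 line (adjusted p = 0.00219). The other Ncam1 probe sets with a mean of at least 5 gave 2.00 and 2.31 in the Runx3 line.

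**Figure D2:**
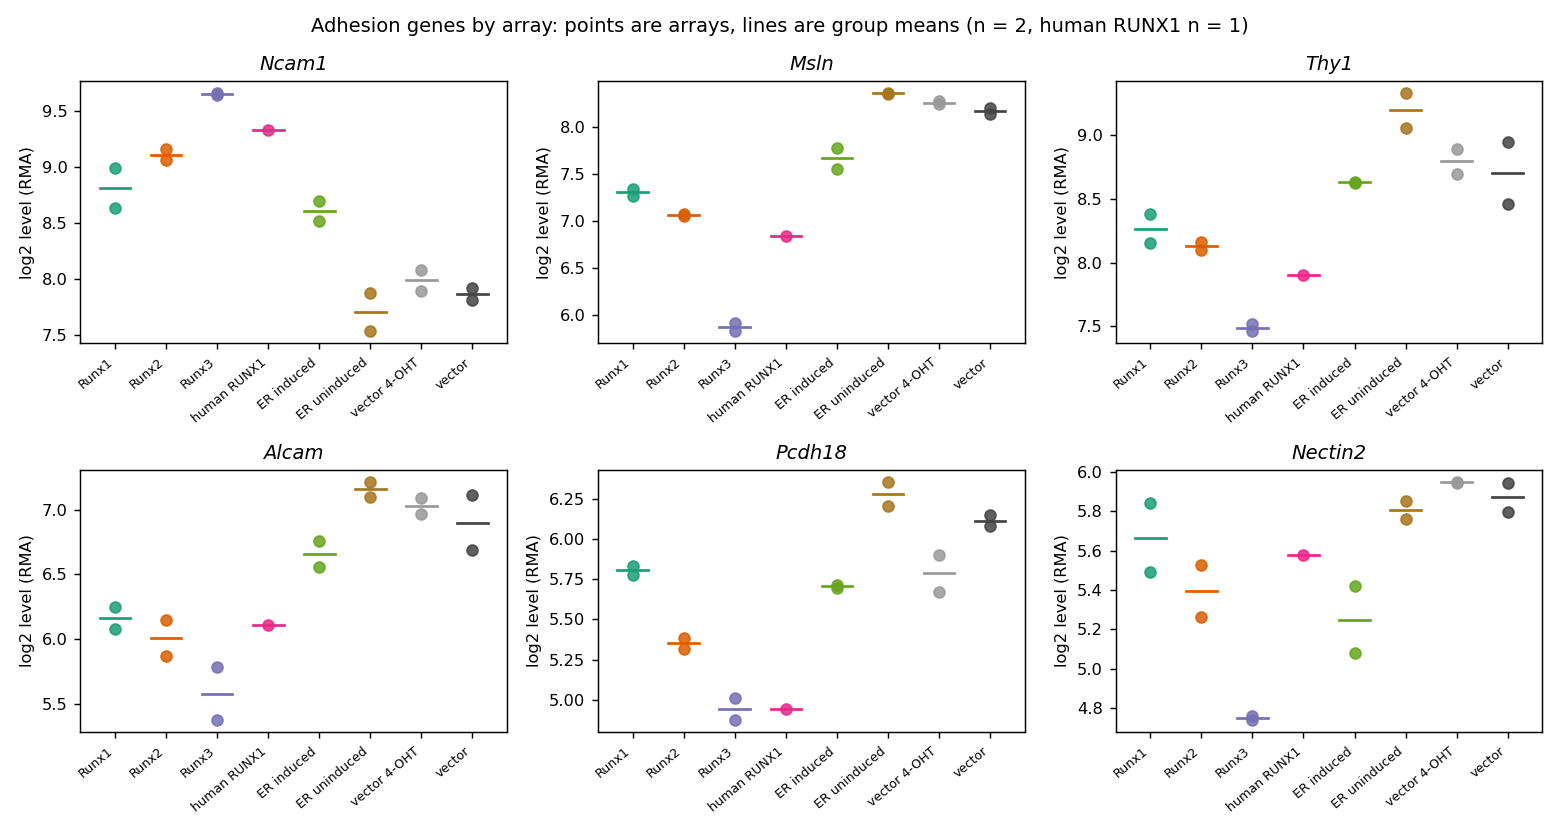
Log2 level of Ncam1, Msln, Thy1, Alcam, Pcdh18 and Nectin2 on every array (points) with group means (lines), 2 arrays a group and 1 for human RUNX1. Ncam1 is high on the Runx1, Runx2, Runx3, human RUNX1 and induced RUNX1-ER arrays, and Msln is lowest on the Runx3 arrays at 5.83 and 5.92; each panel has its own vertical range, which does not start at 0.

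Among the other immunoglobulin molecules, Alcam, Thy1 and Vcam1 fell in the Runx3 line. Alcam, a partner of CD6 that also binds itself, read 6.08 and 6.25 in the Runx1 line, 6.15 and 5.87 in the Runx2 line and 5.38 and 5.79 in the Runx3 line, against 7.11 and 6.69 in vector cells. All 6 line arrays were below both vector arrays. Its log2 difference from vector cells was -1.32 ± 0.16 (SE) in the Runx3 line (limma, adjusted p = 0.000154), -0.89 in the Runx2 line (adjusted p = 0.0087) and -0.73 in the Runx1 line (adjusted p = 0.0392). The Runx1 call was lost without the first vector array (adjusted p = 0.380) or without either Runx1 array (0.258 and 0.136), and the Runx2 call without the first vector array (0.136) or the second Runx2 array (0.0671).

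Thy1, a lipid-anchored surface glycoprotein that marks many fibroblasts, had levels of 8.15 and 8.38 on the Runx1 arrays, 8.16 and 8.09 on the Runx2 arrays and 7.52 and 7.46 on the Runx3 arrays, against 8.94 and 8.46 on the vector arrays. The vector arrays lay further apart from each other for Thy1 than those of any line, and still above every line array. The log2 difference of -1.21 ± 0.15 (SE) in the Runx3 line passed the test (limma, adjusted p = 0.000137), and those of -0.57 in the Runx2 line (adjusted p = 0.0654) and -0.44 in the Runx1 line (adjusted p = 0.246) did not. Vcam1, which binds the integrin VLA-4 on leukocytes, averaged 7.69 ± 0.25 in the Runx3 line and 8.46 ± 0.04 in vector cells (SD, n = 2 each), a log2 difference of -0.78 (limma, adjusted p = 0.000519); the differences of -0.40 and -0.38 in the Runx2 and Runx1 lines did not pass. The other 8 immunoglobulin genes were all dim.

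Pcdh18 and Pcdh19, the bright members of the protocadherins (Pcdh19 is a delta protocadherin that acts with N-cadherin in the brain), fell in the Runx2 and Runx3 lines. Pcdh18 read 5.84 and 5.77 in the Runx1 line, 5.38 and 5.32 in the Runx2 line and 4.87 and 5.01 in the Runx3 line, against 6.15 and 6.08 in vector cells. The groups did not overlap. Its log2 difference was -1.17 ± 0.10 (SE) in the Runx3 line (limma, adjusted p = 6.33e-06), -0.76 in the Runx2 line (adjusted p = 0.00083) and -0.31 in the Runx1 line (adjusted p = 0.21, not passed). Pcdh19 averaged 8.76 ± 0.03 in the Runx2 line and 8.26 ± 0.02 in the Runx3 line, against 9.24 ± 0.13 in vector cells (SD, n = 2 each). Its differences of -0.48 and -0.98 had adjusted p of 0.0149 and 1.87e-05 (limma); the Runx2 call was lost without the second vector array or the first Runx2 array (adjusted p up to 0.176). Fat1, a giant cadherin that limits growth, did not pass in these lines (-0.37, -0.26 and -0.41 in the Runx1, Runx2 and Runx3 lines).

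Nectins bind each other between cells and are linked to actin through afadin, the product of Afdn. Nectin2 read 5.49 and 5.84 in the Runx1 line, 5.26 and 5.53 in the Runx2 line and 4.74 and 4.76 in the Runx3 line, against 5.94 and 5.80 in vector cells. Only the Runx1 arrays overlapped with vector cells. The difference of -1.12 ± 0.14 (SE) in the Runx3 line passed (limma, adjusted p = 0.000154), and those of -0.48 in the Runx2 line (adjusted p = 0.111) and -0.20 in the Runx1 line (adjusted p = 0.749) did not. Nectin3 differed by -0.38, -0.64 and -0.62 in the Runx1, Runx2 and Runx3 lines and passed in the Runx3 line alone (limma, adjusted p = 0.0419). The lines differed from each other by -0.25 to 0.01 for Nectin3, and none of these differences passed. The Runx3 call was lost without either vector array or the second Runx3 array (adjusted p up to 0.320), and vector cells with 4-OHT differed from those without it by -0.39. Nectin1, F11r, Jam2, Jam3 and Esam did not pass in any line.

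Of the other surface molecules, Cd47, Cd81, Cd9 and Cd44 fell in the Runx3 line besides Msln. CD47 is the surface signal that restrains engulfment by macrophages and a receptor of thrombospondin. It averaged 7.81 ± 0.03 in the Runx2 line and 7.64 ± 0.07 in the Runx3 line, against 8.47 ± 0.03 in vector cells (SD, n = 2 each). Its log2 differences were -0.66 and -0.83 (limma, adjusted p = 0.000853 and 3.86e-05), while that of -0.16 in the Runx1 line did not pass (adjusted p = 0.646). The tetraspanins Cd81 and Cd9, membrane organisers, differed by -0.62 and -0.56 in the Runx3 line (limma, adjusted p = 0.00029 and 0.000571) and did not pass in the Runx2 or Runx1 line. Cd44, the hyaluronan receptor, differed by -0.41 in the Runx3 line (limma, adjusted p = 0.031), and that call was lost on leaving out any of the 4 arrays compared (adjusted p between 0.0893 and 0.201). Epcam, an epithelial adhesion molecule, differed by 0.03 in the Runx3 line (adjusted p = 0.931).

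**Figure D3:**
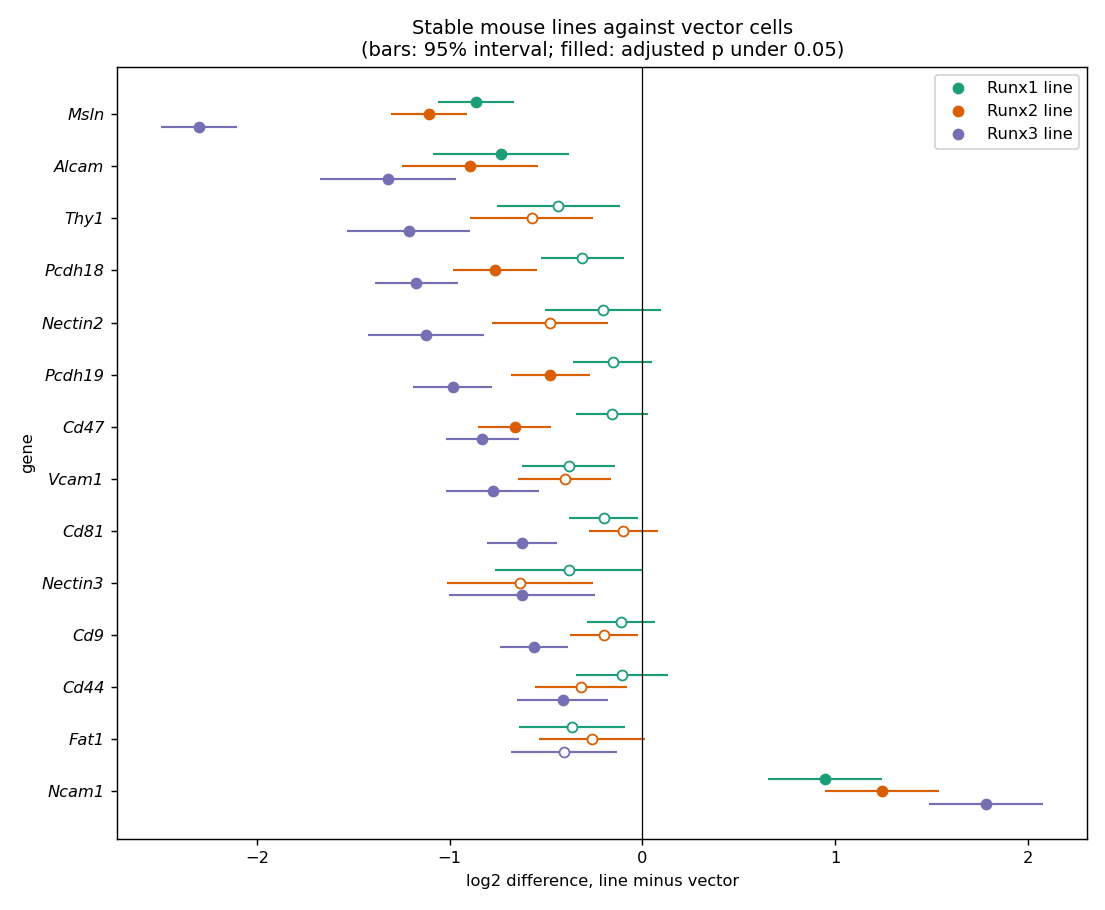
Log2 difference from vector cells, with 95% intervals, in the Runx1, Runx2 and Runx3 lines for the 14 genes that passed in any comparison; filled points passed at an adjusted p under 0.05. Msln reaches -2.30 in the Runx3 line and Ncam1 reaches 1.78, and Fat1 passed in none of these lines.

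Other probe sets of the same genes mostly moved the same way. Of 29 further probe sets of the genes that passed in the Runx3 line, 26 had the sign of the brightest, and of the 11 with a mean of at least 5, all 11 did. Cd47 gave -1.23 and -0.86, Pcdh19 -1.15, Alcam -1.19, Nectin3 -0.79, Cd44 -0.49 and -0.35 and Vcam1 -0.38 and -0.46 in those further bright probe sets. Msln, Thy1, Cd81 and Cd9 have a single probe set, so this check was not possible for them.

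**Figure D4:**
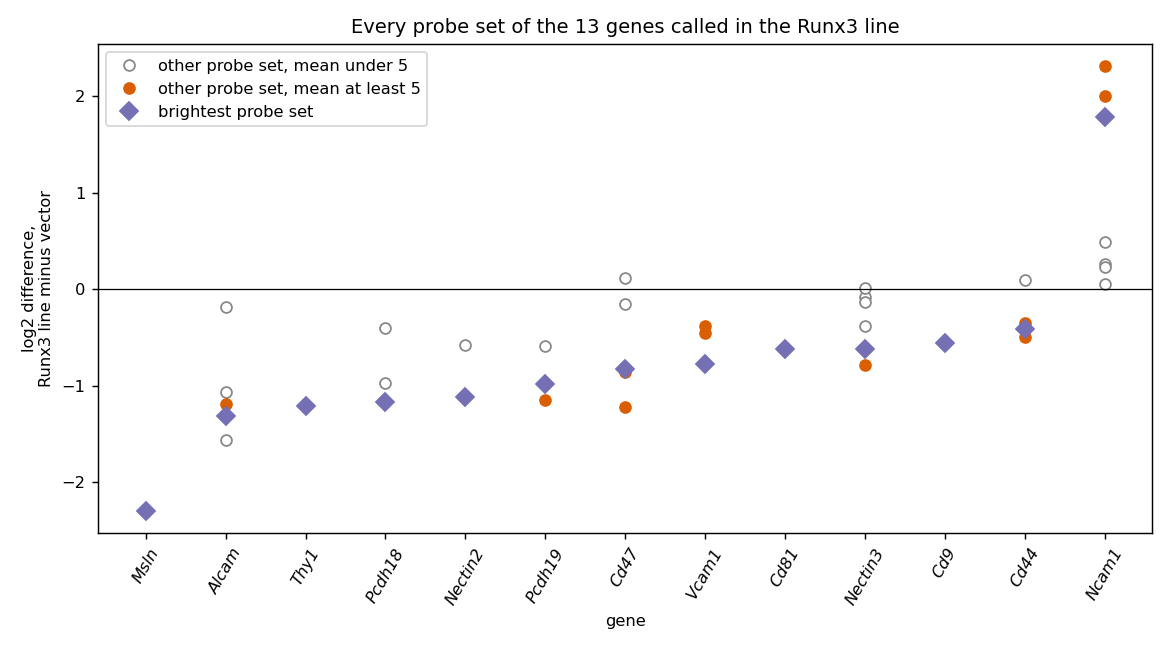
Log2 difference in the Runx3 line minus vector cells for every probe set of the 13 genes that passed there, with the brightest probe set, other bright ones and dim ones marked apart. The other probe sets with a mean of at least 5 lie on the same side of 0 as the brightest for each gene. Not all dim ones do: a dim Alcam probe set stands at -1.56, on the side of the brightest, and a dim Cd47 probe set at 0.12, opposite to it.

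The lines were also set against each other. In the Runx3 line 8 of the 40 genes were lower and 1 higher than in the Runx1 line, where 4.13% of all genes were lower and 2.39% higher. The Msln difference was -1.44 (limma, adjusted p = 1.39e-06), followed by Nectin2 (-0.92), Pcdh18 (-0.86), Pcdh19 (-0.83), Thy1 (-0.78), Cd47 (-0.67), Cd9 (-0.45) and Cd81 (-0.42), and Ncam1 was higher (0.84, adjusted p = 0.00203). Alcam (-0.58) and Vcam1 (-0.39) had adjusted p of 0.0516 and 0.0544 (limma) and did not pass. On leaving out single arrays of these lines the calls of Thy1, Cd9 and Cd81 were lost at least once (adjusted p up to 0.0755).

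Between the Runx3 and Runx2 lines 7 genes were lower and 1 higher in the Runx3 line, where 1.91% of all genes were lower and 1.85% higher. The Msln difference was -1.19 (limma, adjusted p = 2.16e-05) and the Cd81 difference -0.53 (adjusted p = 0.00358). The other 6 calls, Nectin2 (-0.65), Thy1 (-0.64), Pcdh19 (-0.50), Pcdh18 (-0.41), Cd9 (-0.36) and Ncam1 (0.54), were lost without most of the arrays in turn. The count of 8 was 3 without the first Runx2 array, 2 without the second, 3 without the first Runx3 array and 2 without the second. Cd47 differed by -0.17 between these lines, with a 95% interval of -0.36 to 0.02. Between the Runx2 and Runx1 lines 2 genes were lower and none higher in the Runx2 line, where 0.989% of all genes were lower and 0.511% higher. They were Cd47 (-0.51, limma, adjusted p = 0.0107) and Pcdh18 (-0.45, adjusted p = 0.0423). None passed without either Runx1 array or the first Runx2 array, and 1 without the second Runx2 array. Msln differed by -0.24 between these lines (95% interval -0.44 to -0.05, adjusted p = 0.313) and Ncam1 by 0.30 (0.00 to 0.59, adjusted p = 0.447).

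In RUNX1-ER cells, a fusion to a hormone-binding domain that 4-OHT is used to switch on, Ncam1 rose and 5 genes fell with induction, where 1.01% of all genes rose and 0.912% fell. Ncam1 read 8.70 and 8.52 in induced cells, against 7.87 and 7.53 in uninduced cells, a difference of 0.90 (limma, adjusted p = 0.00341). Msln read 7.78 and 7.56 in induced cells, against 8.35 and 8.37 in uninduced cells, a difference of -0.69 (adjusted p = 0.00135). For both genes the groups did not overlap. Pcdh18 read 5.70 and 5.72 in induced cells, against 6.36 and 6.21 in uninduced cells (-0.58, limma, adjusted p = 0.00884). Pcdh19 (-0.55), Vcam1 (-0.50) and Cd47 (-0.45) fell as well (limma, adjusted p = 0.00866, 0.0379 and 0.019). The Vcam1 and Cd47 calls were lost on leaving out any of the 4 arrays compared, and the Pcdh18 and Pcdh19 calls on leaving out any of 3 of them. The count of 6 was 4 and 2 without the first and the second uninduced array, and 1 and 2 without the first and the second induced array; the Msln call held in each of these, and the Ncam1 call was lost without the second uninduced or the first induced array (adjusted p up to 0.0572). With the mean of a gene's probe sets in place of the brightest, Ncam1 (0.33, adjusted p = 0.0944), Pcdh18 (-0.21, 0.29) and Vcam1 (-0.28, 0.266) did not pass by limma and Alcam did (-0.46, 0.0109); the other bright Ncam1 probe sets gave 0.71 and 0.51 with induction.

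Thy1, Nectin2 and Alcam, which fell in the Runx3 line, did not pass in RUNX1-ER cells. Their induced and uninduced arrays did not overlap, which says little with 2 arrays a group. The same held for the dim genes Cdh4 and Cdh6, which did not pass either. Thy1 read 8.63 and 8.62 in induced cells, against 9.05 and 9.33 in uninduced cells (-0.56, limma, adjusted p = 0.0867). Nectin2 read 5.42 and 5.08 in induced cells, against 5.85 and 5.76 in uninduced cells (-0.56, adjusted p = 0.0669). Alcam read 6.76 and 6.56 in induced cells, against 7.22 and 7.10 in uninduced cells (-0.50, adjusted p = 0.206). Cd81 (-0.08), Cd9 (-0.05) and Cd44 (-0.02) differed little, and none of these passed.

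Vector cells given 4-OHT showed what the ligand did without the fusion. No member and no gene of 18193 passed between vector cells with 4-OHT and without it (0% of all genes); at an unadjusted p under 0.05 there were 3 members and 1225 genes (limma). Msln read 8.28 and 8.25 with 4-OHT, against 8.14 and 8.20 without it, and Ncam1 8.08 and 7.90 with 4-OHT, against 7.81 and 7.92 without it. Pcdh18 read 5.90 and 5.67 with 4-OHT, against 6.15 and 6.08 without it, a difference of -0.33 that did not pass (adjusted p = 0.625). The change in RUNX1-ER cells beyond that in vector cells passed for Msln alone among the members, at -0.78 ± 0.13 (SE; limma, adjusted p = 0.0131), where 0.115% of all genes were lower and 0.489% higher in this sense. That call was lost without the second uninduced, the second induced or either vector array (adjusted p between 0.0518 and 0.0791). For Ncam1 the same quantity was 0.78 (adjusted p = 0.113), for Cd47 -0.48 (0.124), for Pcdh19 -0.49 (0.164) and for Pcdh18 -0.25 (0.583), by limma.

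**Figure D5:**
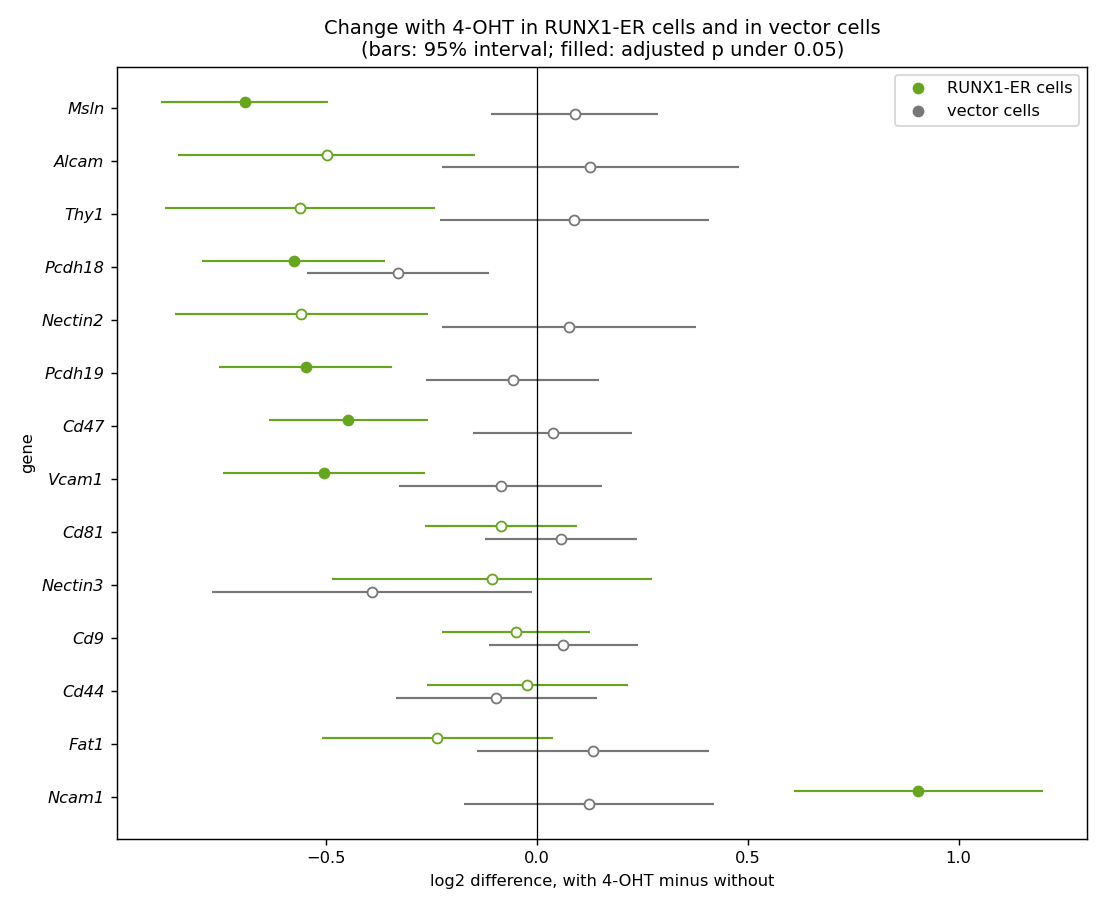
Log2 difference with 4-OHT in RUNX1-ER cells (induced minus uninduced) and in vector cells (with minus without 4-OHT), with 95% intervals, for the 14 genes that passed in any comparison; filled points passed. Ncam1 stands at 0.90 in RUNX1-ER cells and 0.12 in vector cells, and Msln at -0.69 and 0.09.

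Before induction the RUNX1-ER cells were close to vector cells in these genes. No member passed between uninduced RUNX1-ER cells and vector cells without ligand, where 8 genes in all did (0.0440%); 2 members and 1447 genes had an unadjusted p under 0.05 (limma). Thy1 was 9.05 and 9.33 in uninduced RUNX1-ER cells, against 8.94 and 8.46 in vector cells, a difference of 0.49 (95% interval 0.17 to 0.81, adjusted p = 0.401). Set against vector cells that also had 4-OHT, induced RUNX1-ER cells had 4 members lower and 1 higher, where 1.26% of all genes were lower and 2.90% higher. They were Msln (-0.59), Nectin2 (-0.70), Cd47 (-0.50), Pcdh19 (-0.43) and Ncam1 (0.62), with adjusted p between 0.00258 and 0.0236 (limma). The count of 5 was 3 without the first induced array, 1 without the second, 4 without the first vector array with 4-OHT and 2 without the second.

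The human RUNX1 line, measured on 1 array whose spread was taken to be that of the other groups, had 9 members lower and 1 higher than vector cells, where 5.14% of all genes were lower and 2.19% higher. Ncam1 was 9.33 on that array, against 7.81 and 7.92 in vector cells (1.47, limma, adjusted p = 0.000223). Msln was 6.84, against 8.14 and 8.20 in vector cells (-1.33, adjusted p = 2.22e-05). Pcdh18 was 4.95, against 6.15 and 6.08 in vector cells (-1.17, adjusted p = 0.000118). Ncam1 was above both vector arrays on it, and Msln and Pcdh18 were below both. Nectin3 (-0.89), Vcam1 (-0.87), Thy1 (-0.80), Alcam (-0.79), Fat1 (-0.65), Cd44 (-0.56) and Cd47 (-0.48) were lower too (limma, adjusted p between 0.00222 and 0.0318). Fat1 passed in no other comparison, and its call was lost without the second vector array (adjusted p = 0.119). The count of 10 was 5 without the first vector array, where Alcam, Thy1, Nectin3, Cd44 and Cd47 no longer passed, and 7 without the second, where Fat1, Cd44 and Cd47 no longer passed. With the mean of a gene's probe sets Nectin3, Cd44 and Cd47 no longer passed (limma, adjusted p between 0.0571 and 0.0688).

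Genes that work with these molecules were counted from lists of their partners. For scale, 0.726% of all genes fell and 0.973% rose in the Runx1 line. The shares were 1.65% and 0.923% in the Runx2 line, 5.40% and 3.97% in the Runx3 line, and 0.912% and 1.01% with RUNX1-ER induction. These shares stand beside the counts of every list below. Among 18 measured adherens junction and catenin genes, none passed in the Runx1 line, 1 fell in the Runx2 line, and 2 rose and 2 fell in the Runx3 line. Ctnnal1, an alpha-catenin-like gene, differed by -0.56 in the Runx2 line and -1.02 in the Runx3 line, Afdn by -0.72, Ajuba by 0.49 and Tjp1 by 0.38 in the Runx3 line. The median of the list in the Runx3 line was -0.06, against 0.00 over all genes. Of 28 cadherins and protocadherins outside the 40, 1 fell in the Runx1 line, 1 in the Runx2 line and 2 in the Runx3 line. Cdh26, a cadherin known from epithelium, differed by -0.95, -1.82 and -1.79 in the Runx1, Runx2 and Runx3 lines, and Clstn1 by -0.52 in the Runx3 line. With RUNX1-ER induction Cdh26 (-0.98) and Ctnnal1 (-0.52) fell. The change of Clstn3 beyond that in vector cells was 0.73, with all its group means under 5. Clstn3 averaged 4.03 in uninduced and 4.33 in induced RUNX1-ER cells, and 4.32 in vector cells without 4-OHT and 3.89 with it. The difference thus includes a fall in vector cells.

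Of 36 other immunoglobulin adhesion genes, 1 rose in the Runx1 line, 2 rose in the Runx2 line, and 2 rose and 1 fell in the Runx3 line. Cd200, a surface ligand that quiets myeloid cells, differed by 1.03, 1.65 and 1.26 in the Runx1, Runx2 and Runx3 lines, Mpzl1 by 0.45 and 0.38 in the Runx2 and Runx3 lines, and Pvr, a relative of the nectins, by -0.78 in the Runx3 line. Cd200 averaged 3.92 in vector cells, under the olfactory receptor percentile of 3.96. It averaged 4.96, 5.58 and 5.18 in the Runx1, Runx2 and Runx3 lines, near the line of 5 between dim and bright. Of 18 further tetraspanins and partners, 2 rose and 3 fell in the Runx3 line, with Tspan5 at -1.01, Cd82 at -0.71, Tspan31 at -0.59 and Tspan4 at 0.73. Tspan14 rose in the Runx1 line (0.50), Tspan4 rose (0.40) and Tspan5 fell (-0.60) in the Runx2 line, and with RUNX1-ER induction Tspan4 rose (0.76) and Tspan5 (-0.48) and Tspan31 (-0.46) fell. The change of Tspan4 beyond that in vector cells was 0.79 and passed (limma, adjusted p = 0.00795). Tspan4 averaged 8.66 in uninduced and 9.41 in induced RUNX1-ER cells, and 8.76 in vector cells without 4-OHT and 8.73 with it. Among 15 ligands and linkers of CD44 and CD47, 4 fell and 1 rose in the Runx3 line, among them Rdx (-0.56) and Has3 (0.45). Has3 was dim, with averages of 3.71 in the Runx3 line and 3.26 in vector cells, under the olfactory receptor percentile of 3.96. Thbs2 (-1.33) and Thbs1 (-0.70) encode thrombospondins, and Thbs1 protein binds CD47. Of 11 proteases that release adhesion molecules, 2 fell in the Runx3 line, Adam17 (-0.48) and Adam9 (-0.46). Adam19 rose in the Runx1 line (0.72) and fell with RUNX1-ER induction (-0.41). The Runx3-line medians of these 4 lists were -0.07, 0.00, -0.09 and -0.03.

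Some marker genes moved with the lines as well. Of the 12 epithelial markers, only Krt8, a keratin, passed against vector cells, with averages of 4.97 in the Runx2 line, 6.72 in the Runx3 line and 5.61 on the human RUNX1 array, against 4.00 in vector cells (limma, adjusted p = 0.018, 1.67e-06 and 0.00163). The log2 of the summed level of the 12 was 7.62 to 7.79 in the Runx2 line, 7.99 to 8.28 in the Runx3 line and 7.88 on the human RUNX1 array, against 7.54 to 7.59 in vector cells. This sum includes Krt8, and a sum without Krt8 was not taken, so it does not show a shift of the other epithelial markers. Cdh1, the epithelial cadherin, which is not on that list, averaged 4.21 in the Runx3 line and 2.87 in vector cells. This difference of 1.35 passed (limma, adjusted p = 5.13e-05), although both averages were under 5. The Cdh1 differences of 0.45 and 0.34 in the Runx1 and Runx2 lines did not pass (limma, adjusted p = 0.214 and 0.352). Cdh2 averaged 7.60 in the Runx3 line and 7.43 in vector cells and did not pass (limma, adjusted p = 0.436). Of the 11 fibroblast markers, 3 rose and 2 fell in the Runx3 line, where 3.97% of all genes rose and 5.40% fell. Col1a1 differed by 0.85, Col5a2 by 0.73, Pdgfrb by 0.89, Col3a1 by -0.50 and Pdgfra by -1.38. The summed haematopoietic markers were 7.24 to 7.25 in the Runx3 line, against 7.39 to 7.45 in vector cells, the muscle markers 7.06 to 7.11, against 6.95 to 7.00, and the neural markers 6.58 to 6.59, against 6.60 to 6.65. The fibroblast and endothelial sums overlapped between these groups. The haematopoietic, muscle and neural sums are made mostly of genes under 5 on every array. Vector cells with 4-OHT also stood apart from those without it, at 7.32 to 7.35 for the haematopoietic and 6.91 for the muscle markers. In the Runx3 line no muscle or neural marker passed, and of the haematopoietic markers only Coro1a did (-0.41), with averages under 5. The part of these marker changes in the changes of the adhesion genes was not tested.

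Nectin3, Cd47 and Alcam lie on chromosome 16 in that order by RefSeq. Of 23 other measured genes between Nectin3 and Alcam, 5 had a mean of at least 5, with Runx3-line differences between -0.67 and -0.03. Cip2a, one of these, passed (-0.67, limma, adjusted p = 0.00511), and no other gene of the 23 did. In the Runx3 line 5.40% of all genes fell and 3.97% rose.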

How the data were processed

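RNA of 15 cultures was hybridised to Affymetrix arrays. The authors deposited one table of log2 values, made from GCOS output with RMA, per the labels' protocols and the submitters' processing notes; that the values are on a log2 scale was read from their range. Of 45101 probe sets, GEO's platform annotation paired 34945 with 1 symbol, which were used, 932 with several and 9160 with none, and 64 were controls. Each of 18193 genes took its brightest probe set. The test was limma 3.58.1 in R 4.3.3, with 1 coefficient for each of 8 groups, moderated variances, 12 two-sided contrasts and Benjamini-Hochberg adjustment over all genes at 0.05. The groups of 2 arrays limit the precision. The p-values rest on the spread between arrays within groups, pooled for each gene over all 8 groups and moderated over all genes. Nothing says whether replicates came from separate transductions.

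The 40 genes, the partner lists and the marker lists were chosen with earlier results of these data known. Genes with a log2 difference of at least 1 in a mouse line that passed are given on every array; other genes that passed are given by mean or difference; of each partner list up to 4 genes with the largest changes are named. The Cdh10 promoter and the motif TGCGGT were added after values were seen. Promoters were at hand for Alcam, Nectin2 and Pcdh18, and not used here for Ncam1, Msln and Thy1.

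The deviations of equally numbered replicates from their group means correlated between -0.121 and 0.116 over 21 pairs of groups (median 0.0219), with 1 pair over 0.1, so the numbers were not taken to pair arrays. Alternatives were the mean of a gene's probe sets, a minimum mean of 5, only the arrays compared, an intensity trend, median-centred arrays, vector cells with 4-OHT as control, a replicate block and leaving out each array. The test was tried on simulated data first.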

Additional observations from a re-analysis of the deposited data

Results flagged for a closer look

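The response of Msln to 4-OHT differed between RUNX1-ER cells and vector cells by -0.78 ± 0.13 log2 units (SE; limma interaction term, adjusted p = 0.0131). It was -0.69 in RUNX1-ER cells (induced minus uninduced) and 0.09 in vector cells (with minus without 4-OHT), and it was the single member of the 40 for which this difference between the cells passed. Leaving out single arrays gave adjusted p between 0.0138 and 0.0791.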

How the results depend on the processing

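Of the members, 13 passed in the Runx3 line against vector cells, and leaving out single arrays gave 11 to 12. For the Runx1 line (3 genes) an intensity trend gave 5 and leaving out single arrays 2 to 3, and for the Runx2 line (6 genes) they gave 10 and 5 to 6. A fit on the compared arrays alone, which leaves few degrees of freedom, gave 0 for Runx2 against Runx1 (2 otherwise), 1 for Runx3 against Runx2 (8), 0 for induced against uninduced RUNX1-ER (6), 0 for the change beyond that in vector cells (1), 0 for induced RUNX1-ER against vector with 4-OHT (5) and 0 for human RUNX1 (10). The mean of a gene's probe sets gave 1 for Runx2 against Runx1 and 1 for induced RUNX1-ER against vector with 4-OHT. It also gave 4 for induced against uninduced RUNX1-ER, with Ncam1, Pcdh18 and Vcam1 lost and Alcam gained, and 10 for human RUNX1, with Nectin3, Cd44 and Cd47 lost and Pcdh19, Cd9 and Cd81 gained. For the change beyond that in vector cells, a minimum mean of 5 gave 2 and an intensity trend gave 4; the cause was not tested. Leaving out single arrays gave 0 to 1 for Runx2 against Runx1, 7 to 10 for Runx3 against Runx1 (9), 2 to 3 for Runx3 against Runx2, 1 to 4 for induced against uninduced RUNX1-ER, 0 to 1 for the change beyond that in vector cells, 1 to 4 for induced RUNX1-ER against vector with 4-OHT and 5 to 7 for human RUNX1.

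With the replicate block, which the numbers do not support as a pairing, the counts were 3, 6 and 13 for the Runx1, Runx2 and Runx3 lines and 10 for Runx3 against Runx1, and every other count was as without it; human RUNX1 was left out of that fit because its array has no number. With 4-OHT vector cells as control the counts were 3, 7 and 12 in the Runx1, Runx2 and Runx3 lines and 10 for human RUNX1. No gene that passed changed sign under any of these settings. The Cd47 call in the Runx2 line was lost with the mean of its probe sets (adjusted p = 0.0512, limma), and the Nectin3 and Cd44 calls in the Runx3 line were each lost under 6 of 11 settings. Groups of 2 arrays, dim probe sets for 24 of the 40 genes and the lack of a second human RUNX1 array limit what can be seen.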
